A study of Saccharomyces cerevisiae with 39 samples.

Results

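Cryptic unstable transcripts (CUTs) were followed across 13 groups of budding yeast carrying wild-type or altered genes of the RNA exosome. They were taken as the rows of the deposited count files whose identifier names the CUT catalogue of Xu and that had at least 10 counts in at least 3 of the 39 libraries. Of 925 CUT rows, 671 met this limit. The remaining 254 rows were not analysed further: 205 were listed at 0 in all 39 libraries and 49 had some counts. The limit did not ask in which group the counts lay, and 635 of the 671 CUTs also met it in the control libraries alone, whereas 18 met it only because of the rrp6Δ libraries. The 10 CUTs just inside the limit, with 10 counts in exactly 3 libraries, had 102 to 220 counts over all libraries, with a median of 116.5. The 7 CUTs with 10 counts in exactly 2 libraries had a median of 118 counts.

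CUTs are short non-coding RNAs made by RNA polymerase II, in large part from nucleosome-free regions and bidirectional promoters. In wild-type cells they are terminated by the Nrd1-Nab3-Sen1 complex, given an oligo(A) tail by TRAMP and degraded by the nuclear exosome soon after synthesis, so they are seen clearly only when this degradation is impaired. The exosome is a ring of catalytically inactive subunits capped by RNA-binding subunits, with the nuclease Dis3 at its base and, in the nucleus, the nuclease Rrp6 at its top. Stable unannotated transcripts (SUTs) come from the same catalogue and are non-coding RNAs that can be detected in wild-type cells.

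Of the altered genes, RRP6 encodes the nuclear 3′ to 5′ exonuclease. RRP4 and RRP40 encode cap subunits that bind RNA, and RRP45 and RRP46 encode subunits of the ring. The codon changed in each missense allele is shown because the comparisons turn on these substitutions. Each sequence is the wild-type coding strand of the R64 genome of RefSeq, 27 bases 5′ to 3′, with the codon of the changed residue in capitals. All 7 codons encode the wild-type residue named in the label.
rrp4-G226D, chrVIII:233969-233995, minus strand: accgtagttctcGGAgtcaatggttac
rrp40-S87A, chrXV:55804-55830, plus strand: agctataaggttTCGttgcaaaatttc
rrp40-W195R, chrXV:56128-56154, plus strand: aatgggaagatcTGGgttaagtgcgag
rrp45-I15P, chrIV:1020777-1020803, plus strand: gagtcaaaatttATCttagaagcactg
rrp46-Q86I, chrVII:676073-676099, minus strand: tgttacccaagaCAGctctgccagata
rrp46-L127T, chrVII:675950-675976, minus strand: gcaggaattgccTTAaatagtatgtgc
rrp46-L191H, chrVII:675758-675784, minus strand: aatgaagatcaaTTGttcagtttactg

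Every strain was a haploid labelled BY4741 that lacked the chromosomal copy of 1 exosome gene and carried the low-copy plasmid pRS315 (LEU2, CEN6). The 5 control groups, named RRP4, RRP40, RRP45, RRP46 and RRP6, had the wild-type gene on the plasmid, and 7 groups had the missense alleles listed above. The rrp6Δ group had the plasmid without the gene. The RRP4 family was MATα ura3Δ0 leu2Δ0 his3Δ1 lys2Δ0 rrp4Δ::NEO. The RRP46 family was MATα ura3Δ0 leu2Δ0 his3Δ1 lys2Δ0 rrp46Δ::kanMX4. The RRP45 family was MATα ura3Δ0 leu2Δ0 his3Δ1 rrp45Δ::NEO. The RRP40 family was MATa ura3Δ0 leu2Δ0 his3Δ1 rrp40Δ::NEO, and the RRP6 family was MATa ura3Δ0 leu2Δ0 his3Δ1 met15Δ0 rrp6Δ::kanMX4. All groups were grown for 5 h at 37 °C in minimal medium without leucine, with 3 libraries per group. The cultures were described as triplicates and nothing further was said of their origin, so p-values measure the spread between these libraries.

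Library totals ranged from 17244127 to 53642418 counts, with a median of 35937895. The RRP6 gene had 584 to 747 CPM (counts scaled to library size) in the RRP6 libraries and 5.17 to 6.38 CPM in the rrp6Δ libraries. The missense changes cannot be checked in a count table. RRP46 had 489 to 531 CPM in the RRP46 libraries, 913 to 980 in rrp46-L191H, 405 to 447 in rrp46-L127T and 75.1 to 95.8 for rrp46-Q86I, so the rrp46-Q86I libraries held less RRP46 RNA than their control. STE2, the α-factor receptor of MATa cells, averaged 325 to 580 CPM in the groups labelled MATa and 6.65 to 18.3 CPM in those labelled MATα. Group means of MFA1, MFA2, BAR1, STE6, STE3 and MF(ALPHA)1 also separated the labelled mating types. Those of SAG1 and MF(ALPHA)2, chosen as markers of MATα, did not. SAG1 averaged 131 CPM in rrp6Δ (MATa) and 68.7 CPM in RRP4 (MATα), and MF(ALPHA)2 averaged 14.6 and 13.1 CPM. Counts do not tell fewer expressing cells from less RNA per cell.

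In the control libraries CUTs took up a small share of the counts. The share was 0.251% ± 0.0134 (SD, n = 3) in RRP6, 0.201% ± 0.0068 in RRP4, 0.162% ± 0.0056 in RRP40, 0.186% ± 0.0022 in RRP45 and 0.188% ± 0.0068 in RRP46. Over all 39 libraries a CUT had a median of 2.03 CPM, and 41 CUTs reached 10 CPM. The lowest mean was 0.0624 CPM and 186 CUTs lay under 1 CPM. These values are not divided by transcript length and so do not rank CUTs by abundance.

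The CUT share rose most in rrp6Δ, to 0.775% ± 0.0374, which was 3.08 times its control. It was 0.390% ± 0.0069 in rrp4-G226D, 1.94 times its control, and 0.252% ± 0.0222 in rrp40-W195R, 1.56 times its control. In rrp46-L191H it was 0.284% ± 0.0098, or 1.51 times its control. In each of these 4 mutants the lowest library lay above the highest library of its control. The other 4 mutants had shares at 0.917 to 1.02 times their controls: 0.165% ± 0.0032 for rrp40-S87A, 0.188% ± 0.0031 for rrp45-I15P, 0.184% ± 0.0051 for rrp46-L127T and 0.172% ± 0.0153 for rrp46-Q86I. In each of these 4 the mutant libraries overlapped their control libraries. An exact permutation test of 3 libraries against 3 cannot give a two-sided p under 0.1, so no p is given for the share.

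**Figure D1:**
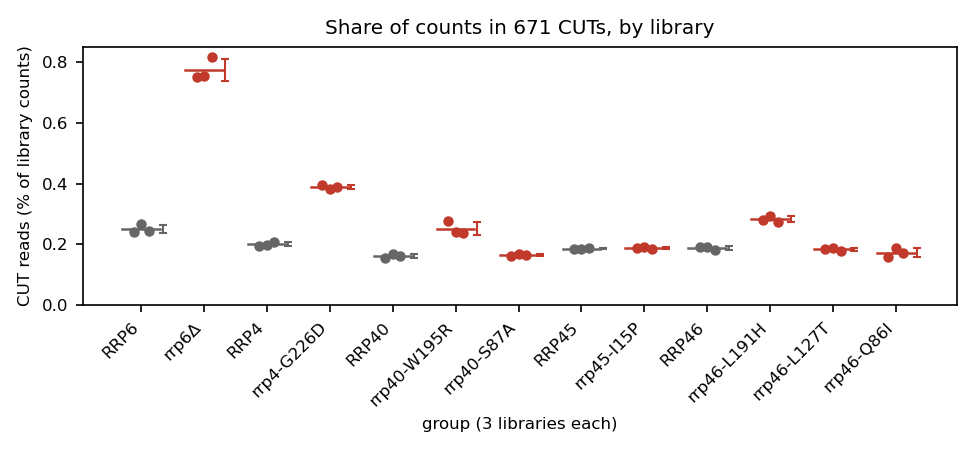
Share of library counts in the 671 CUTs, in percent, for each of 39 libraries (points), with the group mean (line) and SD (bar); control groups are grey and mutant groups red. The rrp6Δ libraries lie at 0.751% to 0.818%, above every other library, and the groups rrp4-G226D, rrp40-W195R and rrp46-L191H lie above their own controls.

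SUTs rose by less. Their share of counts was 2.33 times the control in rrp6Δ, 1.77 times in rrp4-G226D, 1.38 times in rrp40-W195R and 1.30 times in rrp46-L191H. The ratio of CUT to SUT counts was 0.470 ± 0.0126 in RRP6 and 0.622 ± 0.0153 in rrp6Δ. It was 0.451 ± 0.0036 in RRP46 and 0.524 ± 0.0034 in rrp46-L191H. The ratio moved from 0.440 ± 0.0043 in RRP4 to 0.482 ± 0.0059 in rrp4-G226D, and from 0.420 ± 0.0041 in RRP40 to 0.474 ± 0.0112 in rrp40-W195R.

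Each mutant was then compared with its own control CUT by CUT. The fold changes are relative to the other features of the same libraries, and a CUT is called at an adjusted p under 0.05 in edgeR's quasi-likelihood test over all 7911 features that met the same count limit. In rrp6Δ 568 CUTs rose and 23 fell, against 42.3% of all features called higher and 40.6% called lower. Of the 635 CUTs that met the count limit in the control libraries alone, 538 were called higher. The median of all 671 CUTs was a log2 fold change of 1.24, or 2.36-fold, with quartiles of 0.75 and 1.61. The median of all features was 0.03 and that of the 707 SUTs was 0.81. Of the SUTs, 79.63% were called higher, compared with 84.65% of the CUTs. Rises of at least 2-fold were called for 419 CUTs, against 16.6% of all features, and 41 CUTs rose at least 4-fold, against 1.53% of all features.

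In rrp4-G226D 453 CUTs rose and 21 fell, with 35.0% of all features called higher and 35.2% lower. The share called higher was 68.5% for SUTs and 67.5% for CUTs. The median log2 fold change was 0.73 for CUTs, 0.53 for SUTs and 0.02 for all features. Of the CUTs, 214 rose at least 2-fold, against 7.93% of all features. In rrp40-W195R 264 CUTs rose and 26 fell, where 24.5% of all features were called higher and 25.3% lower. The share called higher was 33.2% for SUTs and 39.3% for CUTs. The CUT median was 0.47, the SUT median 0.26 and the median of all features 0.03, and 71 CUTs rose at least 2-fold, against 3.0% of all features.

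In rrp46-L191H 281 CUTs rose and 64 fell, with 30.2% of all features called higher and 29.7% lower. The share called higher was 37.3% for SUTs and 41.9% for CUTs. The median was 0.32 for CUTs, 0.17 for SUTs and -0.0004 for all features, and 97 CUTs rose at least 2-fold, against 3.54% of all features. The 5th percentile of the CUT log2 fold change was -0.97 and the 95th was 1.39, compared with -0.18 and 2.07 in rrp6Δ. Of its 64 falls, 23 were at least 2-fold, against 3.02% of all features.

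Few CUTs were called in the other 4 mutants. In rrp40-S87A 4 CUTs rose and 13 fell, with 6.99% of all features called higher and 7.14% lower. In rrp46-L127T 2 rose and 5 fell, where 2.71% of all features were higher and 2.48% lower. In rrp46-Q86I 1 CUT rose and 0 fell, where 0.442% of all features were higher and 0.101% lower. In rrp45-I15P 0 CUTs were called in either direction by edgeR, with 0.0253% of all features higher and 0.0 lower. At an unadjusted p under 0.05, 78 CUTs (11.6%) differed in rrp45-I15P, against 9.62% of all features, and DESeq2 called 2 CUTs higher. Rises of at least 2-fold numbered 2 for rrp40-S87A, 1 for rrp46-L127T and 1 for rrp46-Q86I, against 0.0758%, 0.0379% and 0.0126% of all features. The median CUT changed by -0.15 in rrp46-Q86I, where the SUT median was -0.12. The medians were -0.03 for rrp40-S87A and likewise -0.03 for rrp46-L127T, and 0.02 for rrp45-I15P.

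**Figure D2:**
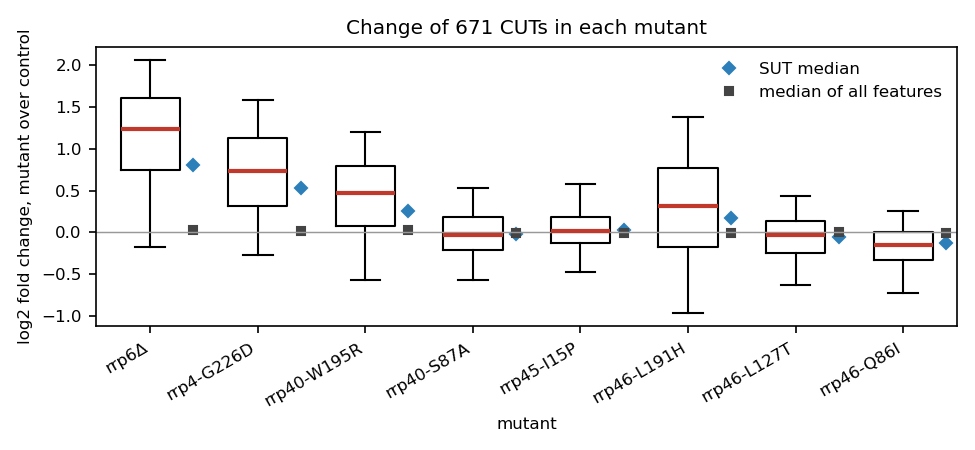
Log2 fold change of the 671 CUTs in each mutant over its own control; boxes span the quartiles with the median in red and whiskers run from the 5th to the 95th percentile. Blue diamonds are SUT medians and grey squares are medians of all features; the CUT median is 1.24 for rrp6Δ, 0.73 for rrp4-G226D, 0.47 for rrp40-W195R and 0.32 for rrp46-L191H, and between -0.15 and 0.02 in the other mutants.

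The size of these rises depends on the scale. Scaling by library totals in place of TMM factors raised the median of all features by 0.60 on the log2 scale for rrp6Δ, 0.33 for rrp4-G226D, 0.34 for rrp40-W195R and 0.16 for rrp46-L191H. The CUT medians became 1.84, 1.07, 0.81 and 0.49, and the medians of all features became 0.63, 0.36, 0.37 and 0.16. No called rise changed sign, whereas 9 of the 23 falls in rrp6Δ, 2 of the 21 in rrp4-G226D and 1 of the 26 in rrp40-W195R turned positive. With library totals 632 CUTs were called higher and 6 lower in rrp6Δ, 557 and 6 in rrp4-G226D, 423 and 9 in rrp40-W195R, and 341 and 43 in rrp46-L191H, so the counts of falls depend on the scale. In rrp40-S87A the split of 4 higher and 13 lower became 10 higher and 7 lower. The shares of all features called under library totals were not counted, here or in later paragraphs.

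In the deposited tables of the authors, at their adjusted p under 0.05, the CUTs listed as higher numbered 537 for rrp6Δ, 409 for rrp4-G226D, 238 for rrp40-W195R and 252 for rrp46-L191H. Of the 238, 237 were also higher in the edgeR test, and all CUTs of the other 3 sets were. For the mutants with few calls the authors' deposited tables listed 3 CUTs as higher in rrp40-S87A, 7 in rrp46-L127T, 2 in rrp45-I15P and 1 in rrp46-Q86I. Of these, 3, 1, 0 and 1 were also higher in the edgeR test. Many CUTs had no adjusted p from the authors and so could not be called. They numbered 422 of 670 in rrp40-S87A, 446 of 670 in rrp46-L127T, 43 of 664 in rrp45-I15P and 213 of 670 in rrp46-Q86I.

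The rise in rrp6Δ varied with the CUT. CUTs named for the size of a rise or fall in a mutant had to be called there, with at least 5 CPM in the higher group and no overlap between groups. Their separation and small p are thus part of that choice. The largest estimate of any CUT in rrp6Δ was 3.86 on the log2 scale, but the largest rise by this rule was that of CUT347. It had 8.38, 9.55 and 8.54 CPM in the RRP6 libraries and 57.5, 59.9 and 62.7 CPM in rrp6Δ. All rrp6Δ libraries lay far above all control libraries, with a log2 fold change of 2.80 ± 0.062 (SE) and an adjusted p of 9.4e-15. CUT914 was next, with 16.0, 18.9 and 14.5 CPM in RRP6 and 93.2, 95.8 and 98.0 CPM in rrp6Δ. Its libraries were likewise apart, at a log2 fold change of 2.58 ± 0.070 and an adjusted p of 4.71e-13. CUT679, CUT464 and CUT787 rose by 2.32, 2.30 and 2.28 on the log2 scale from control means between 1 and 2 CPM.

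A typical CUT moved less. CUT848, close to the median, had 9.92, 11.2 and 9.59 CPM in RRP6 and 22.1, 23.2 and 25.7 CPM in rrp6Δ. The groups did not overlap, and the log2 fold change was 1.25 ± 0.078 with an adjusted p of 2.44e-10. CUT381 and CUT332 changed by 1.24 and 1.25. CUT848 also rose in rrp4-G226D by 0.89, in rrp40-W195R by 0.64 and in rrp46-L191H by 0.78 (adjusted p = 2.59e-09, 0.00139 and 3.8e-06).

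Among CUTs with at least 5 CPM in the higher group and no overlap between groups, the largest rises in rrp4-G226D were those of CUT333, CUT680, CUT745, CUT89 and CUT330, from 1.88 down to 1.70 on the log2 scale. CUT333 had 8.65, 9.39 and 11.3 CPM in RRP4 and 36.0, 36.6 and 37.2 CPM in rrp4-G226D. Every mutant library was more than 3 times every control library, and the adjusted p was 6.13e-14. The rise of CUT333 was 1.69 for rrp6Δ, 0.84 for rrp40-W195R and 1.41 for rrp46-L191H.

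By the same limits the leading CUTs in rrp40-W195R were CUT347, CUT182, CUT344, CUT48 and CUT412, with log2 fold changes of 1.44, 1.44, 1.29, 1.19 and 1.17. CUT182 had 2.02, 2.23 and 1.75 CPM in RRP40, 2.55, 2.83 and 2.34 CPM in rrp40-S87A, and 5.56, 4.81 and 5.76 CPM in rrp40-W195R. The rrp40-W195R libraries stood above all others of the family (1.44 ± 0.15, adjusted p = 1.93e-05), and the change in rrp40-S87A did not pass the test (0.36 ± 0.17, adjusted p = 0.172).

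In rrp46-L191H the leading CUTs by these limits were CUT347, CUT477, CUT230, CUT438 and CUT493, with log2 fold changes of 2.05, 2.04, 1.92, 1.78 and 1.75. CUT438 had 5.41, 5.43 and 5.14 CPM in RRP46 and 18.8, 18.2 and 17.7 CPM in rrp46-L191H. It had 3.62, 4.50 and 4.74 CPM in rrp46-L127T and 3.99, 4.93 and 5.06 CPM in rrp46-Q86I. Only the rrp46-L191H libraries lay above the RRP46 libraries, with an adjusted p of 8.45e-10, and the other alleles had adjusted p of 0.207 and 0.508.

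Shared rises were counted over rrp46-L191H, rrp40-W195R, rrp4-G226D and rrp6Δ, whose control libraries are separate. In all 4 mutants 194 CUTs rose, which is 28.9% of the 671, against 9.87% of all features. A further 130 (19.4%) rose in rrp6Δ and rrp4-G226D alone, 64 (9.54%) in those mutants and rrp46-L191H, and 53 (7.90%) in those mutants and rrp40-W195R, against 10.9%, 4.59% and 5.03% of all features. In rrp6Δ alone 104 CUTs (15.5%) were called, against 8.92% of all features, and 79 (11.8%) were called higher in none of the 4, against 38.9%. Over the 8 comparisons 29.1% of the CUTs rose in at least 4, against 11.7% of all features, and 40 CUTs were called in neither direction anywhere, as were 5.17% of all features.

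**Figure D3:**
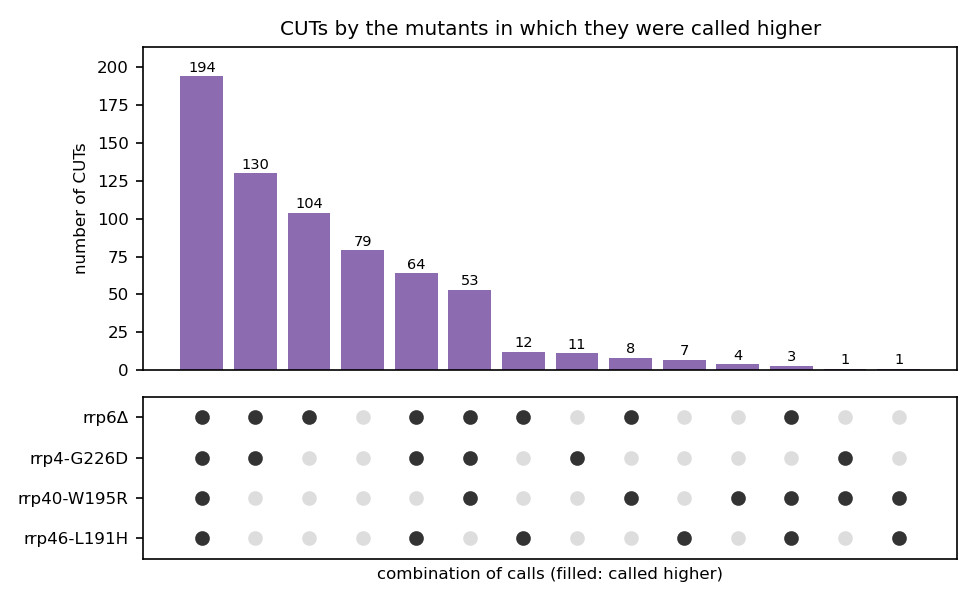
Number of CUTs for each combination of the 4 mutants in which they were called higher; filled dots below a bar name the mutants. The largest class is the 194 CUTs called in all 4, followed by 130 in rrp6Δ and rrp4-G226D and 104 in rrp6Δ alone, while combinations without rrp6Δ hold 24 CUTs in all.

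The calls outside rrp6Δ lay mostly within those of rrp6Δ. Of the 453 CUTs higher in rrp4-G226D, 441 (97.4%) were higher in rrp6Δ, where the same share over all features was 86.7%. The share was 97.7% of the 264 CUTs of rrp40-W195R, against 70.0% over all features. For the 281 CUTs of rrp46-L191H it was 97.2%, against 52.4% over all features. In the other direction, of the 568 CUTs higher in rrp6Δ, the share called was 77.6% for rrp4-G226D, 45.4% for rrp40-W195R and 48.1% for rrp46-L191H, against 71.8%, 40.5% and 37.4% over all features. The mutants rrp40-W195R and rrp46-L191H had 198 CUTs in common, 75.0% and 70.5% of their lists, against 62.1% and 50.3% over all features.

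Within the 194 shared CUTs the rise was 2.89-fold at the median for rrp6Δ, 2.19-fold for rrp4-G226D, 1.73-fold for rrp40-W195R and 1.80-fold for rrp46-L191H. Their quartiles were 1.23 and 1.77 on the log2 scale in rrp6Δ and 0.63 and 1.14 in rrp46-L191H. The shared CUTs had median log2 fold changes of 0.025 for rrp40-S87A, -0.038 for rrp45-I15P, 0.035 for rrp46-L127T and -0.14 for rrp46-Q86I. Of the 194, 154 had their largest estimate for rrp6Δ, 18 for rrp46-L191H, 15 for rrp4-G226D and 7 for rrp40-W195R. At least a 2-fold rise in all 4 mutants was called for 20 of the 671 CUTs (2.98%), against 0.544% of all features.

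CUT347, CUT236, CUT477, CUT652, CUT89, CUT438, CUT48, CUT344, CUT117, CUT535 and CUT192 were the CUTs that the naming rule took from those shared by the 4 mutants. CUT347 rose by 1.36 ± 0.10 on the log2 scale in rrp4-G226D, from 3.08, 3.39 and 3.68 CPM to 9.38, 8.56 and 8.66 CPM. In rrp40-W195R it rose by 1.44 ± 0.10, from 9.46, 7.88 and 9.91 CPM to 26.8, 25.1 and 22.8 CPM. In rrp46-L191H it rose by 2.05 ± 0.082, from 15.8, 13.4 and 16.4 CPM to 61.5, 68.8 and 58.2 CPM. In each case every mutant library lay above every control library. The control level itself differed between families: CUT347 was lowest in RRP4 and highest in RRP46.

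CUT236 had 3.57, 3.66 and 2.98 CPM in RRP6 and 14.1, 13.2 and 17.9 CPM in rrp6Δ. The rise on the log2 scale was 2.18 for rrp6Δ, 1.57 for rrp4-G226D, 1.13 for rrp40-W195R and 1.55 for rrp46-L191H (adjusted p = 7.8e-10, 1.09e-09, 0.000848 and 5.09e-07). For CUT48 the rise was 1.74 for rrp6Δ, 1.6 for rrp4-G226D and 1.59 for rrp46-L191H, and 1.19 for rrp40-W195R. Compared with rrp6Δ, its response differed by -0.16 ± 0.17 in rrp4-G226D and by -0.15 ± 0.14 in rrp46-L191H (adjusted p = 0.452 and 0.354). Under library totals the second of these differences was -0.59 and passed the test (adjusted p = 0.00157).

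CUT394 was the only CUT called higher in 5 comparisons. It had 5.32, 5.23 and 5.0 CPM in RRP46, 7.55, 7.34 and 6.60 CPM in rrp46-L127T and 6.14, 5.80 and 7.35 CPM in rrp46-L191H. Both mutants lay above the control. The rise was 0.46 ± 0.11 in rrp46-L127T (adjusted p = 0.0348) and 0.31 ± 0.11 in rrp46-L191H (adjusted p = 0.0276), and the first of these was lost when any library but replicate 1 of rrp46-L127T was left out, with adjusted p of 0.0604 to 0.123. The rises of CUT394 elsewhere were 1.27 for rrp6Δ, 1.01 for rrp4-G226D and 0.39 for rrp40-W195R.

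**Figure D4:**
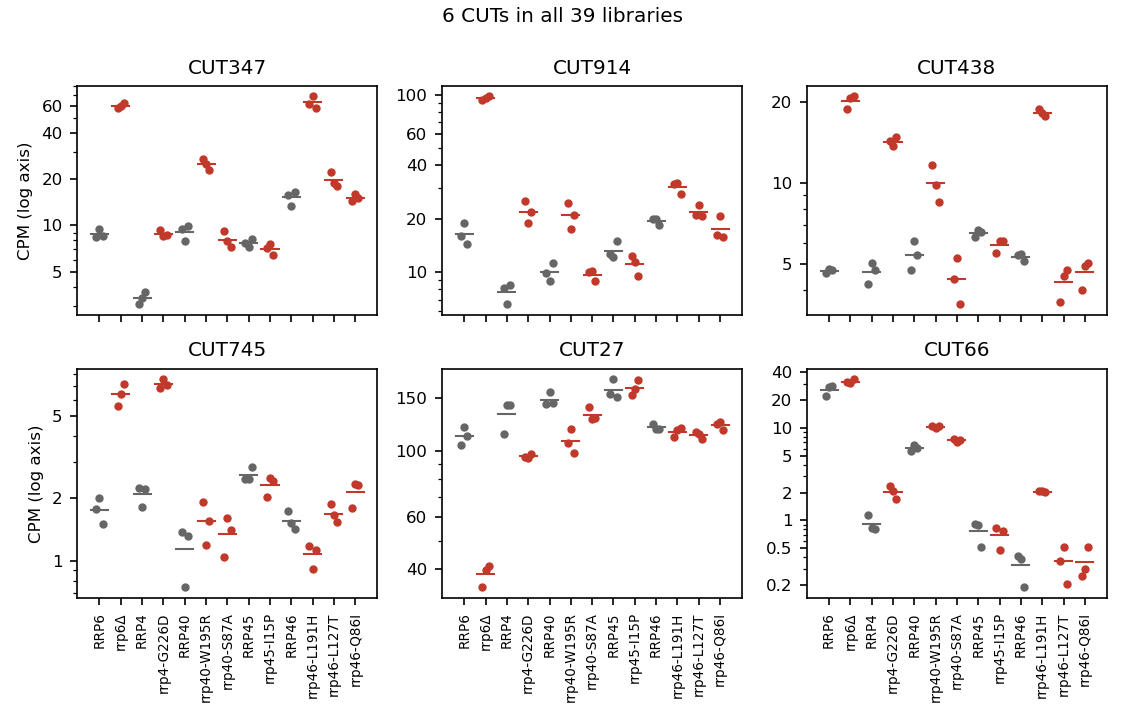
CPM on a log axis of 6 CUTs in all 39 libraries (points) with group means (lines), control groups in grey and mutants in red. CUT347 and CUT438 rise in all 4 mutants with many calls, CUT914 most in rrp6Δ, CUT745 in rrp6Δ and rrp4-G226D, CUT27 falls in rrp6Δ, and CUT66 is high in the RRP6 and RRP40 families.

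The sizes of the rises were compared between mutants with separate controls by testing the difference of the responses. In rrp4-G226D the response was lower than in rrp6Δ for 33.7% of the CUTs and higher for 11 CUTs, against 21.3% and 27.1% of all features. In rrp40-W195R it was lower than in rrp6Δ for 354 CUTs and higher for 13, against 28.0% and 33.0%. In rrp46-L191H it was lower for 415 and higher for 26, against 35.3% and 35.6%. The median differences of the log2 fold changes were -0.41, -0.73 and -0.79. Under library totals 399 CUTs were lower and 3 higher in rrp4-G226D, 463 and 7 in rrp40-W195R, and 550 and 6 in rrp46-L191H.

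Against rrp4-G226D, the response was lower for 113 CUTs and higher for 13 in rrp40-W195R, where 17.0% and 19.6% of all features were called. It was lower for 192 CUTs and higher for 27 in rrp46-L191H, where 24.2% and 26.9% were called, and under library totals it was lower for 271 and higher for 13. Between rrp46-L191H and rrp40-W195R the split was nearer to even, with 60 CUTs lower and 51 higher in rrp46-L191H, against 15.6% and 17.5% of all features. Under library totals this last split became 100 lower and 26 higher.

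Among the CUTs named by the rule, CUT454 had the largest called difference in the direction of a lower response in rrp4-G226D than in rrp6Δ. It had 11.5, 15.5 and 12.5 CPM in RRP6 and 42.8, 42.9 and 46.2 CPM in rrp6Δ. In RRP4 it had 8.35, 10.3 and 10.5 CPM, and in rrp4-G226D 9.18, 9.49 and 9.21 CPM. The rrp6Δ libraries were well above their control, whereas the rrp4-G226D libraries lay within the range of theirs (-0.090 ± 0.087, adjusted p = 0.361, and 0.24 with an adjusted p of 0.0168 under library totals). The difference of the responses was -1.90 ± 0.13, with an adjusted p of 3.32e-10. CUT454 also responded less in rrp46-L191H and rrp40-W195R than in rrp6Δ, by 1.66 and 1.45 on the log2 scale (adjusted p = 1.19e-10 and 7.92e-08).

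CUT745 rose in rrp6Δ and rrp4-G226D and fell in rrp46-L191H. It had 1.77, 2.0 and 1.5 CPM in RRP6 and 5.61, 6.39 and 7.12 CPM in rrp6Δ. In RRP4 it had 2.25, 1.82 and 2.22 CPM, and in rrp4-G226D 6.84, 7.54 and 7.04 CPM. In RRP46 it had 1.74, 1.52 and 1.42 CPM, and in rrp46-L191H 1.17, 0.915 and 1.13 CPM. None of these pairs of groups overlapped, and the first 2 moved up while the last moved down. The log2 fold changes were 1.91 ± 0.14, 1.79 ± 0.12 and -0.54 ± 0.19, and the difference between the responses in rrp46-L191H and rrp6Δ had an adjusted p of 1.28e-08. Under library totals the fall in rrp46-L191H was -0.38 and did not pass the test (adjusted p = 0.108).

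CUT785 was an example of the opposite order. It had 3.31, 3.71 and 2.84 CPM in RRP46 and 9.15, 10.2 and 9.81 CPM in rrp46-L191H, and 3.92, 3.69 and 3.89 CPM in RRP6 and 6.16, 6.02 and 7.11 CPM in rrp6Δ. Both mutants lay above their controls. The rise was 1.57 ± 0.11 in rrp46-L191H and 0.77 ± 0.11 in rrp6Δ, and the difference of 0.80 ± 0.16 passed the test (adjusted p = 0.000139). It was 0.36 under library totals (adjusted p = 0.0481).

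The 104 CUTs called higher in rrp6Δ alone were examined in the same way, since a missing call does not show a smaller response. A response lower than that in rrp6Δ was called in all 3 other mutants for 28 of them and in at least 1 for 86. For the other 18 no lower response was called. These CUTs were picked by calls from the same libraries, a choice that favours lower responses in the other mutants. The 706 features called higher in rrp6Δ alone were not counted in the same way. Across the 671 CUTs the log2 fold changes in rrp6Δ correlated with those in rrp4-G226D at Pearson's r = 0.716 and Spearman's rho = 0.706, with those in rrp40-W195R at 0.529 and 0.568, and with those in rrp46-L191H at 0.394 and 0.383. These values describe CUTs that share libraries and are not independent replicates.

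**Figure D5:**
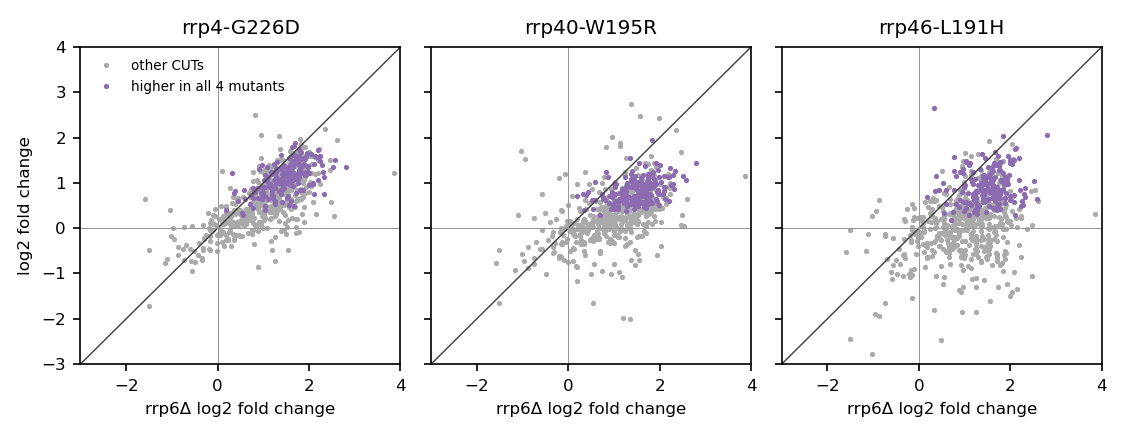
Log2 fold change of each of 671 CUTs in rrp4-G226D, rrp40-W195R and rrp46-L191H (vertical axes) against that in rrp6Δ (horizontal axes), with the line of equal change. CUTs called higher in all 4 mutants are purple and lie for the most part below the line, and CUTs with positive changes in rrp6Δ and negative ones in rrp46-L191H fill the lower right of the last panel.

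In some mutants the share of CUTs called higher differed with the level of the CUT. The 671 CUTs were divided by mean CPM over all 39 libraries, mutants included, into groups of 223, 224 and 224. In rrp6Δ 84.8%, 84.4% and 84.8% of them rose, from the lowest to the highest level, and the medians were 1.28, 1.26 and 1.12. In rrp4-G226D the shares were 51.1%, 72.3% and 79.0% while the medians were 0.70, 0.70 and 0.80. The median standard error was 0.286 at the lowest level and 0.103 at the highest in this mutant.

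In rrp40-W195R 16.1%, 42.4% and 59.4% of CUTs rose, with medians of 0.44, 0.48 and 0.51. In rrp46-L191H the shares were 14.4%, 45.5% and 65.6%, and here the medians differed as well, at 0.037, 0.34 and 0.57. At the lowest level 22 CUTs fell in rrp46-L191H, compared with 32 that rose. The mean used for this division holds the libraries in which CUTs rose. Divided by the control libraries alone, a choice made after seeing the data, 194, 192 and 182 CUTs rose in rrp6Δ, and the shares were 53.8%, 73.2% and 75.4% in rrp4-G226D, 18.4%, 45.1% and 54.5% in rrp40-W195R, and 18.4%, 46.4% and 60.7% in rrp46-L191H. The order of the medians turned in rrp4-G226D, to 0.77, 0.71 and 0.70, whereas in rrp46-L191H they were 0.076, 0.40 and 0.49.

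The alleles of 1 gene share a control and were compared with each other directly. In rrp40-W195R 253 CUTs were higher than in rrp40-S87A and 17 were lower, with 17.7% and 19.3% of all features called. The median difference was 0.49. In rrp46-L191H 320 CUTs were higher than in rrp46-Q86I and 34 lower, against 31.2% and 30.3% of all features, with a median of 0.49. Compared with rrp46-L127T, 253 were higher in rrp46-L191H and 25 lower, against 24.1% in each direction, with a median of 0.35. Between rrp46-L127T and rrp46-Q86I 1 CUT was higher in rrp46-L127T and 2 were lower, with 0.19% and 0.493% of all features called.

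The only CUT called in rrp46-Q86I was CUT19. It had 3.4, 3.84 and 3.2 CPM in RRP46 and 6.37, 7.93 and 8.31 CPM in rrp46-Q86I. It had 3.87, 3.51 and 3.75 CPM in rrp46-L127T and 4.19, 4.20 and 4.18 CPM in rrp46-L191H. All rrp46-Q86I libraries stood above the other 9 libraries of the family. The rise was 1.1 ± 0.13 with an adjusted p of 0.000636, and CUT19 was lower in rrp46-L191H and in rrp46-L127T than in rrp46-Q86I (adjusted p = 1.73e-06 and 0.0049). The second of these was lost without replicate 3 of rrp46-Q86I (adjusted p = 0.0775).

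In rrp40-S87A the named rises were CUT76, CUT663 and CUT896, at 1.52, 0.71 and 0.37. CUT896 had 21.7, 24.4 and 24.1 CPM in RRP40, 29.4, 32.2 and 29.1 CPM in rrp40-S87A and 24.4, 24.5 and 23.5 CPM in rrp40-W195R. The rrp40-S87A libraries were above all RRP40 libraries (adjusted p = 0.00411), and the rrp40-W195R libraries were at the upper end of their control (0.044 ± 0.073, adjusted p = 0.638, and 0.38 with an adjusted p of 0.00132 under library totals). CUT693 fell in rrp40-S87A by 0.50 and in rrp40-W195R by 1.16, from 11, 11.2 and 9.0 CPM in RRP40 to 8.43, 6.54 and 7.02 CPM and to 4.31, 5.41 and 4.36 CPM. Both mutants lay below the control in every library (adjusted p = 0.0129 and 2.81e-05). In rrp40-S87A the call for CUT693 was lost without replicate 1 or 2 of RRP40 or replicate 3 of rrp40-S87A (adjusted p = 0.0553, 0.0751 and 0.0618). That for CUT663 was lost without replicate 1 of RRP40 or replicate 3 of rrp40-S87A (0.0649 and 0.0668). CUT76 was lost without replicate 2 of RRP40 or replicate 1 or 3 of rrp40-S87A (0.0734, 0.0891 and 0.0797).

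A minority of CUTs fell. In at least 1 of the 4 mutants with many calls 84 CUTs (12.5%) were called lower, against 56.1% of all features, and 6 were lower in all 4, against 11.5% of all features. CUT27 had more counts than any other CUT in the controls, with 104, 120 and 112 CPM in RRP6 and 34.9, 39.7 and 41.0 CPM in rrp6Δ. The groups were far apart (-1.51 ± 0.063, adjusted p = 4.15e-11). In rrp4-G226D and rrp40-W195R it fell by 0.48 and 0.47, calls that were lost under library totals (adjusted p = 0.0687 and 0.108), and in rrp46-L191H it changed by -0.045 (adjusted p = 0.373), or by 0.12 under library totals (adjusted p = 0.0315). The fall in rrp6Δ was larger than the response in each of the other 3 mutants.

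CUT496 fell in all 4 mutants, also under library totals. It went from 20.1, 16.1 and 20.4 CPM in RRP6 to 8.15, 8.69 and 8.30 CPM in rrp6Δ and from 27.7, 26.1 and 23.8 CPM in RRP40 to 14.5, 14.5 and 12 CPM in rrp40-W195R. In both cases the groups did not overlap. The log2 fold changes were -0.51 for rrp46-L191H, -0.93 for rrp40-W195R, -0.77 for rrp4-G226D and -1.15 for rrp6Δ.

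By the rule for named CUTs, the largest falls in rrp46-L191H were those of CUT418, CUT125 and CUT588. CUT418 had 7.15, 6.92 and 5.54 CPM in RRP46 and 1.1, 2.14 and 1.80 CPM in rrp46-L191H. It was also lower in every rrp46-L127T library, at 3.93, 3.84 and 3.75 CPM, with log2 fold changes of -1.93 ± 0.19 and -0.77 ± 0.14 (adjusted p = 1.4e-06 and 0.0125). The second call was lost without replicate 2 of RRP46 or replicate 2 of rrp46-L127T (adjusted p = 0.0573 and 0.0535). CUT588 fell by 1.05 in rrp46-L191H and by 0.71 in rrp4-G226D. In rrp6Δ it was called lower by -0.35 with TMM factors and higher by 0.25 with library totals.

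Control levels of single CUTs differed between families. For 415 CUTs the highest control group mean was within 2 times the lowest, for 86 it was over 3 times and for 5 over 10 times. For CUT64, CUT65 and CUT66 the lowest library of the MATa controls was over 3 times the highest library of the MATα controls. CUT66 had 5.67 to 28.2 CPM in the MATa controls and 0.189 to 1.13 CPM in the MATα controls. Mating type cannot be told apart here from the other differences between the families.

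CUT66 had the largest difference between rrp46-L191H and rrp6Δ in favour of rrp46-L191H by the rule for named CUTs. It had 0.407, 0.386 and 0.189 CPM in RRP46 and 2.06, 2.06 and 2.03 CPM in rrp46-L191H, and it had 22.3, 27.9 and 28.2 CPM in RRP6 and 31.3, 30.8 and 33.7 CPM in rrp6Δ. Both mutants lay above their controls, on very different levels. The log2 fold changes were 2.66 ± 0.25 and 0.32 ± 0.079, and the difference was 2.34 ± 0.27 (adjusted p = 1.77e-07). CUT64 fell by 1.58 in rrp6Δ, from 11.7, 12.6 and 12.7 CPM to 3.17, 4.37 and 4.40 CPM, and all rrp6Δ libraries lay below the control.

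Genes whose products terminate, tail or degrade CUTs changed too. Of 5 genes of Nrd1-dependent termination, all 5 rose in both rrp4-G226D and rrp46-L191H, 4 rose in rrp40-W195R and 2 in rrp6Δ, and 0 fell. Over all features 35.0%, 30.2%, 24.5% and 42.3% were called higher, in that order. Under library totals all 5 rose in each of the 4 mutants, with no share over all features counted. NRD1, the RNA-binding subunit whose own transcript is terminated early by the same complex, rose, with log2 fold changes of 0.68 for rrp6Δ, 0.68 for rrp4-G226D, 0.39 for rrp40-W195R and 0.72 for rrp46-L191H (adjusted p = 5.83e-10, 3.86e-11, 0.00358 and 3.95e-08). Medians of the 5 genes, in the same order of mutants as for NRD1, were 0.10, 0.29, 0.28 and 0.40. Under library totals they were 0.71, 0.63, 0.61 and 0.56, where the medians of all features were 0.63, 0.36, 0.37 and 0.16.

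Of 5 TRAMP genes, all 5 rose in rrp46-L191H, 4 in rrp40-W195R, 1 in rrp4-G226D and 2 in rrp6Δ. In each of the last 2 mutants 3 fell. Over all features 35.2% were called lower in rrp4-G226D and 40.6% in rrp6Δ, and the shares called higher are given above. Under library totals 4 TRAMP genes rose in each of these 2 mutants, with 0 lower in rrp4-G226D and 1 in rrp6Δ. MTR4, the helicase that feeds RNA to the exosome, changed by -0.76 in rrp6Δ and by 0.35 in rrp46-L191H (adjusted p = 1.78e-10 and 4.47e-05). Of 13 genes for the exosome and its nuclear partners, 12 were tested. All 12 were lower in rrp6Δ, RRP6 itself included, with a median of -0.39. In rrp40-W195R 7 were higher and in rrp46-L191H 9, with medians of 0.16 and 0.25. The 7 include RRP40 and the 9 include RRP46, the genes carried on the plasmid in those families. With library totals 8 of the 12 were higher and 3 lower in rrp6Δ. In rrp4-G226D the split of 1 higher, RRP4 itself, and 7 lower became 6 higher and 1 lower. The direction of these lists in both mutants thus depends on the scale.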

How the data were processed

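Total RNA was depleted of rRNA, and libraries were made with the Zymo-Seq RiboFree kit, per the labels' protocols. The submitters' processing notes name STAR, featureCounts 1.22.2, StringTie 2.1.7, DESeq2 1.38.1 and build R64, and the file headers name duplicate-marked alignments. The annotation source, the strand setting and the treatment of reads that map to several places are not given in the sources used here, so reads of a CUT cannot be told apart from reads of a gene that overlaps it. The deposited files hold raw counts per feature and library. The authors' deposited comparison tables hold log2 fold changes and p-values; whether the fold changes were shrunken is not stated.

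The 8898 rows were reduced to 7911 with at least 10 counts in at least 3 of 39 libraries, 1 set for every comparison. TMM factors and the robust quasi-likelihood F test of edgeR 4.0.16 in R 4.3.3 were used for 8 comparisons of a mutant with its control, 4 between alleles and 6 of the difference of 2 responses over 12 libraries. P-values are two-sided and were adjusted by Benjamini-Hochberg over all 7911 features. Fold changes use edgeR's default prior count. Standard errors were derived from the test, as the absolute log2 fold change divided by the square root of F. Only the libraries compared entered a fit. Printed CPM use TMM factors over all 39 libraries, except those of RRP6, RRP46, STE2, SAG1 and MF(ALPHA)2, which use library totals. The steps were tested on simulated data. Replicates of a group differed beyond counting noise, with chi-square per degree of freedom of at least 4.43.

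CUTs were named by rule: the 5 largest called rises and 3 largest called falls of each comparison, among those with at least 5 CPM in the higher group and no overlap between groups; the 2 largest called differences in each direction between alleles or responses, with at least 5 CPM in the highest group; the 3 nearest the rrp6Δ median with a mean of at least 5 CPM; and, with no such limit, the 12 called higher most often, the 8 with most counts in controls and the 4 called lower most often. CUT64 and CUT66 were also, and CUT65 only, chosen after their control levels were seen. The CUTs, gene lists and tests were chosen with earlier results of these data known. Alternatives tried were library totals, edgeR's own filter, no filter, DESeq2 1.42.0, TMM factors without CUTs and SUTs, a replicate block, a joint fit, a 2-fold minimum and leaving out each library. CUT coordinates were not available here, so no CUT sequence is shown.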

Additional observations from a re-analysis of the deposited data

Results flagged for a closer look

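Called in opposite directions in 2 mutants with separate controls were 16 CUTs, listed here by the difference of the responses on the log2 scale, each with the adjusted p of edgeR's test of that difference. They are CUTs at 5 CPM or more in at least 1 group whose difference was at least 1, and each CUT is given for the pair of mutants that differed most. The 16 are 2.38% of the CUTs, against 7.26% of all features that met the same rule.

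Higher in rrp6Δ and lower in rrp46-L191H were CUT745, with a difference of 2.45 (adjusted p = 1.28e-08), CUT305 with 2.43 (1.17e-07), CUT540 with 2.24 (3.07e-09) and CUT661 with 2.17 (1.17e-06). The same order was seen for CUT125 with 2.15 (adjusted p = 3.36e-09), CUT102 with 2.11 (6.88e-11), CUT94 with 2.0 (2.6e-08) and CUT304 with 1.48 (7.73e-09). CUT255 differed by 1.13 (adjusted p = 9.97e-07) and CUT303 by 1.05 (0.00106). CUT125 owed its difference mainly to the fall in rrp46-L191H, of -1.81 against a rise of 0.34 in rrp6Δ, whereas CUT540 rose by 1.70 and fell by 0.54.

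Higher in rrp6Δ and lower in rrp40-W195R were CUT4, with a difference of 1.95 (adjusted p = 2.26e-07), CUT892 with 1.63 (5.68e-07) and CUT776 with 1.25 (0.000112). Under library totals the falls of CUT892 and CUT776 in rrp40-W195R were not called (adjusted p = 0.77 and 0.284), nor were those of CUT94, CUT303, CUT305, CUT540, CUT661 and CUT745 in rrp46-L191H (0.0961, 0.218, 0.0872, 0.0508, 0.103 and 0.108) or that of CUT76 in rrp6Δ (0.0931).

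CUT76 was lower in rrp6Δ and higher in rrp40-W195R, with a difference of 2.47 (adjusted p = 0.00346). Its rrp40-W195R libraries ranged from 3.22 to 8.35 CPM and overlapped the RRP40 libraries, at 1.37 to 3.3 CPM. The rise itself had an adjusted p of 0.0424 in edgeR's test. CUT64 was lower in rrp6Δ and higher in rrp4-G226D, with a difference of 2.20 (adjusted p = 2.49e-07). In the RRP4 family it was low and the groups overlapped, at 0.77, 0.898 and 1.03 CPM in RRP4 and 0.977, 1.65 and 1.58 CPM in rrp4-G226D. It reached 5 CPM only in groups of the RRP6 and RRP40 families. CUT693 was lower in rrp40-W195R and higher in rrp4-G226D, with a difference of 1.60 (adjusted p = 1.52e-06). Groups of 3 libraries were not searched for outlying libraries.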

How the results depend on the processing

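With at least 2-fold required, the CUTs called higher numbered 214 for rrp4-G226D, 71 for rrp40-W195R, 2 for rrp40-S87A, 97 for rrp46-L191H and 1 for rrp46-L127T, and 20 in all 4 mutants or in 4 or more. As a percentage of the 671 CUTs, those that differed by at least 2-fold were 10.4 between rrp40-W195R and rrp40-S87A, 21.6 and 14 between rrp46-L191H and its alleles Q86I and L127T, and 0.149 between the latter. Responses differed by that much for 8.64%, 25% and 33.7% between rrp6Δ and rrp4-G226D, rrp40-W195R or rrp46-L191H, for 4.47% and 12.7% between rrp4-G226D and the last 2, and for 5.96% between these. The shares of all features differing by at least 2-fold between alleles or responses were not counted. Nor were those under the other settings below, so these percentages describe the CUTs only. Library totals gave 423 CUTs in rrp40-W195R and 10 in rrp40-S87A, 61.3% differing between both, and 59.9% between the responses of rrp4-G226D and rrp6Δ. A joint fit gave 8 CUTs for rrp40-S87A, 8 for rrp46-L127T, 2 for rrp46-Q86I and 2.09% between the latter, where DESeq2 gave 0.894%. In rrp45-I15P no filter and TMM factors without CUTs and SUTs each gave 1 CUT, and DESeq2 gave 2. A minimum of 3 comparisons gave 316 CUTs and one of 5 gave 1. The cause of these moves was not tested. The count of CUTs higher in rrp6Δ stayed within 1.5 times under every alternative, whereas its 23 falls became 6 under library totals.

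Leaving out 1 library at a time gave 549 to 559 CUTs for rrp6Δ, 423 to 439 for rrp4-G226D, 200 to 264 for rrp40-W195R, 243 to 271 for rrp46-L191H and 1 for rrp46-Q86I. It gave 1 to 4 in rrp40-S87A, with 1 without replicate 3 of rrp40-S87A and 2 without replicate 1 or 2 of RRP40. It gave 0 to 3 in rrp45-I15P, with 3 without its replicate 1. In rrp46-L127T it gave 0 to 2, with 0 without replicate 2 or 3 of rrp46-L127T or 1 or 2 of RRP46, and 1 without replicate 3 of RRP46. Between alleles the percentages were 28.3 to 40.4, 47.1 to 53.5, 34.4 to 40.7 and, for rrp46-L127T against rrp46-Q86I, 0 to 2.53, with 2.53 without replicate 1 and 0.149 without replicate 2 of rrp46-L127T and 0 without replicate 3 of rrp46-Q86I. Between responses they were 30.1 to 38.2, 47.5 to 56.9 and 61.1 to 66.0 against rrp6Δ, 15.2 to 22.8 and 28.3 to 33.7 against rrp4-G226D, and 12.7 to 18.3 for the last pair. CUTs higher in 4 or more comparisons numbered 155 to 198, and in all 4 mutants 153 to 196.

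Same-numbered libraries of a mutant and its control did not deviate together, with correlations of -0.096 to 0.085, so the numbers do not pair them. A replicate block gave 571 CUTs for rrp6Δ, 451 for rrp4-G226D, 273 for rrp40-W195R, 272 for rrp46-L191H, 3 for rrp40-S87A, 2 for rrp45-I15P, 2 for rrp46-L127T and 1 for rrp46-Q86I, and 190 in all 4. Of 85 values of 55 named CUTs, 73 kept their call in every setting, and the other 12 lay in rrp40-S87A, rrp46-L127T or the comparison of rrp46-L127T with rrp46-Q86I. None of the 85 changed sign. The 85 are the values by which the rule chose a CUT; other values of the same CUTs, such as those of CUT27, CUT588 and CUT745 given with the results, did change call or sign under library totals. The 223 CUTs of lowest level had median standard errors of 0.245 to 0.387 on the log2 scale in the 4 mutants.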
